A study of Mus musculus with 12 samples.

Results

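Cholesterol is made from acetyl-CoA by a chain of enzymes that passes through mevalonate, isoprenoid units, squalene and lanosterol. The genes of this chain are best known as targets of the sterol regulatory element binding proteins (SREBPs), transcription factors held in the endoplasmic reticulum by SCAP and the INSIG proteins when sterols are plentiful and released to the nucleus when sterols run low. Growing cells need the pathway for new membranes, and they can also take up cholesterol carried in lipoproteins. The 8 genes described here were matched by symbol among the 54146 genes of the deposited tables. *Hmgcs1*, *Idi1*, *Fdft1*, *Sqle*, *Lss*, *Cyp51* and *Dhcr7* encode enzymes of the chain and *Insig1* encodes a sterol-dependent brake on it. None of the 8 is an uptake gene, so uptake was followed in a list of other genes.

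RNA-seq was performed on mouse embryonic stem cells (mESCs) of C57BL/6 background cultured in serum and LIF, with 4 groups of 3 libraries. Cells of all 4 groups started from a Prdm10F/F; Rosa26-CreERT2 line, in which exon 5 of *Prdm10* is floxed and a tamoxifen-dependent Cre is made from the ubiquitously active Rosa26 locus. For 24 h they received 50 nM 4-OHT, giving the genotype label Prdm10del/del; Rosa26-CreERT2, or an equal volume of ethanol (EtOH), and RNA was taken at Day 2 or Day 4. The EtOH cells carried the floxed alleles and the Cre without its ligand, so loss of *Prdm10*, Cre activity and 4-OHT itself cannot be told apart in these groups. The labels do not say whether the libraries of a group came from separate cultures or how many clones were used, so p-values measure the spread between libraries, which may be technical.

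The libraries held between 35017667 and 41409992 expected counts. Summed TPM (RSEM's level per length, scaled to 1 total in every library) of 8 pluripotency markers lay between 2365 and 2850 in every library. *Dppa5a* gave the largest part of this sum, with group means from 1223 to 1436 TPM, while those of *Klf4* ran from 27.2 to 39.8. Of these markers 1 rose and 3 fell at Day 2 while 6 rose at Day 4 in the comparisons described below. The sums of 8 fibroblast markers (1.07 to 3.39) and 8 extraembryonic endoderm markers (1.64 to 2.61) were near 0, with 7 of 8 genes of each list below 1 TPM in all 12 libraries. The fibroblast sum was 1.07 to 1.62 in Day 4 OHT and 2.39 to 3.22 in Day 4 EtOH. Most of it was *Thy1*, at 0.78 ± 0.29 TPM in Day 4 OHT and 2.18 ± 0.41 in Day 4 EtOH (SD, n = 3). The other 7 genes of that list were those below 1 TPM in every library. Germ layer markers summed to between 8.58 and 12.3 TPM. From Day 2 to Day 4, all 3 of them that were tested fell in EtOH (median log2 fold change -1.13) and in OHT (-0.61). Of all genes tested, 20.5% and 23.0% were called lower over time. *Otx2* averaged 4.69 TPM in Day 2 EtOH and 2.37 in Day 4 EtOH. The part of these shifts in the results below was not tested. The gene-level count of *Prdm10* went against the label, with a mean normalised count of 801 ± 29.4 (SD, n = 3) in EtOH and 2173 ± 80.3 (SD, n = 3) in OHT at Day 2, and 869 ± 45.8 and 2012 ± 67.5 at Day 4. It does not measure exon 5 alone, and the groups are called here the libraries labelled OHT or EtOH.

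RefSeq promoter windows on GRCm38.p6 matched 6 of the 8 genes, with 3 start sites for *Dhcr7*. *Sqle* and *Fdft1* had no window. The 250 bases before each start were searched on both strands for 4 motifs: the sterol regulatory element form TCACNCCAC, the CCAAT box CCAAT bound by NF-Y, the GC box GGGCGG bound by Sp1 and the E-box CACGTG. They occurred in 1.05%, 33.8%, 32.7% and 6.02% of the 32851 windows of all genes, respectively. *Hmgcs1* held the sterol regulatory element, 137 bases before its start, and the other 5 genes held no match to these letters. All 6 genes held a CCAAT box, *Hmgcs1* with 3 and *Idi1* with 2, and in *Dhcr7* the box lay before the third start only. A GC box was found in all 6, though not before the second start of *Dhcr7*, and an E-box in *Insig1* and before that second start. These are counts of genes, while the shares above are of windows, and *Dhcr7* had 3 windows in which to match. A match is a description of the letters and not evidence of binding. A few of these stretches are shown because the genes moved together below and their matches lie before the first annotated exon. All are on the plus strand and end before that exon, and capitals mark the sterol regulatory element, the CCAAT box (ATTGG when read from the other strand) and the E-box. *Hmgcs1* is shown at chr13:119690101-119690350, *Lss* at chr10:76531355-76531587 and *Insig1* at chr5:28071162-28071362.
Hmgcs1: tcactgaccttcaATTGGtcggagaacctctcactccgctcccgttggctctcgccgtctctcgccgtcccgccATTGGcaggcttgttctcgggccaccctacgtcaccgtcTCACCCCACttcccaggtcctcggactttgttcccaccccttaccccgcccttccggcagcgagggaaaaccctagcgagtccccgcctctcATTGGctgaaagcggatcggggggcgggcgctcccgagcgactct
Lss: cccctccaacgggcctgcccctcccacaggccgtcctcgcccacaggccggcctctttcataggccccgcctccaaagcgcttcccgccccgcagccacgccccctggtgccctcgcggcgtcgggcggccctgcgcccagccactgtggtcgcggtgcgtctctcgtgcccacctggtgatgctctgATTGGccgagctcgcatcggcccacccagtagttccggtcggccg
Insig1: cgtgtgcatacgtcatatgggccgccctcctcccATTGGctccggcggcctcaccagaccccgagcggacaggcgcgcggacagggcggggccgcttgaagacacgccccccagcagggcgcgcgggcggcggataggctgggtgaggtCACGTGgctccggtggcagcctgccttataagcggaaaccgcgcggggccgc

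To ask whether these genes changed after 4-OHT, OHT and EtOH libraries of the same day were compared. At Day 2, 7 of the 8 genes fell, by 20.4% (*Fdft1*) to 30.0% (*Cyp51*), and *Dhcr7* did not pass the test. At Day 4 all 8 fell, by 18.3% (*Insig1*) to 38.5% (*Dhcr7*), and at neither day did a gene rise. A gene was called when the DESeq2 Wald test gave a Benjamini-Hochberg adjusted p below 0.05 over all genes tested and its mean normalised count (count divided by the size factor of its library) was above 100. Among all genes tested, 10.7% were called lower at Day 2 and 21.7% at Day 4, while 9.17% and 23.5% were called higher. The 8 genes had a median log2 fold change of -0.38 on the first of these days and -0.41 on the second, while the medians of all genes tested were -0.03 and 0.0061. No gene of the 8 was higher in OHT at an unadjusted p below 0.05, and edgeR called 0 higher and the same numbers, 7 and 8, lower. In bulk RNA, a lower level in each cell and fewer cells with a high level cannot be told apart.

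**Figure D1:**
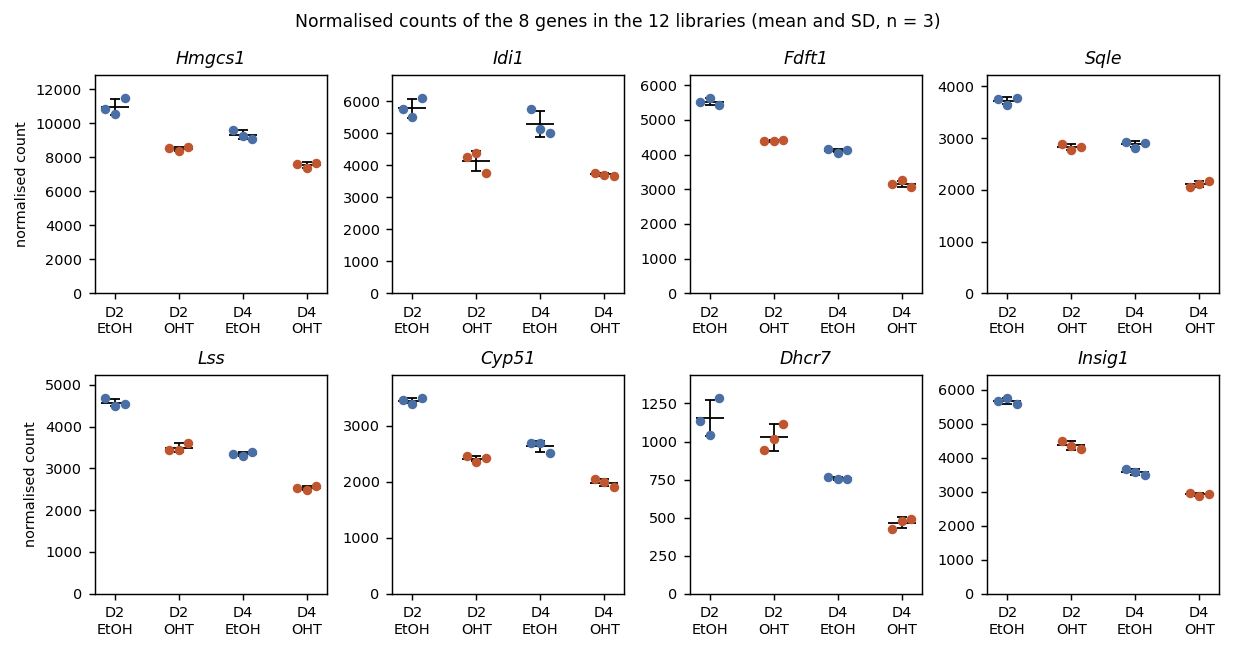
Normalised counts (vertical axis, from 0) of the 8 genes in each of the 12 libraries, grouped by day (D2, D4) and by EtOH (blue) or OHT (orange). Bars give the mean and SD of 3 libraries. Day 2 EtOH is the highest and Day 4 OHT the lowest group in all 8 panels.

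*Hmgcs1* (chr13:119690379-119708260, plus strand, GRCm38) encodes the cytosolic HMG-CoA synthase that opens the mevalonate part of the pathway. Its normalised counts at Day 2 were 10840.4, 10514 and 11481 in the libraries labelled EtOH and 8553, 8376 and 8579.6 in those labelled OHT. At Day 4 they were 9625, 9242 and 9097 in EtOH and 7603, 7340.2 and 7644 in OHT. The groups did not overlap on either day, and the log2 fold change was -0.36 ± 0.04 (SE) at Day 2 (DESeq2 adjusted p = 1.18e-14) and -0.31 ± 0.03 at Day 4 (DESeq2 adjusted p = 7.72e-18). *Hmgcs1* had the highest level of the 8 genes, 77.4 ± 4.81 TPM (SD, n = 3) in Day 2 EtOH.

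*Idi1* (chr13:8885501-8892451, plus strand) encodes the isomerase that interconverts the 2 activated isoprene units. The Day 2 libraries held normalised counts of 5748, 5514 and 6102 in EtOH and 4271, 4369 and 3765 in OHT. Those of Day 4 held 5762, 5134 and 5008 in EtOH and 3768, 3706 and 3665 in OHT. The spread within Day 2 OHT, where replicate 3 was lowest, and within Day 4 EtOH, where replicate 1 was highest, was wider than for the other enzymes of similar level, yet OHT lay below EtOH on both days. The log2 fold change was -0.48 ± 0.06 (SE) at Day 2 and -0.52 ± 0.05 at Day 4 (DESeq2 adjusted p = 2.18e-14 and 1.6e-24). It was the only one of the 8 whose reads were shared with other loci to a visible degree, with a posterior SD of the count of up to 32.8 reads.

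*Fdft1* (chr14:63145150-63179578, minus strand) encodes squalene synthase, the first enzyme committed to sterols. Its EtOH libraries at Day 2 gave normalised counts of 5525, 5632 and 5421 and its OHT libraries 4383, 4379.6 and 4431. Values at Day 4 were 4155, 4059 and 4124 in EtOH and 3142, 3261 and 3080.1 in OHT. The groups stood apart on both days, and the log2 fold change was -0.33 ± 0.04 (SE) at Day 2 and -0.38 ± 0.04 at Day 4 (DESeq2 adjusted p = 1.08e-12 and 5.64e-19).

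*Sqle* (chr15:59315077-59331192, plus strand) encodes squalene epoxidase, a second rate-controlling step of the chain. For this gene, normalised counts at Day 2 were 3759, 3641 and 3775 in EtOH and 2885, 2771 and 2822 in OHT. The Day 4 counts were 2924, 2812 and 2910.4 in EtOH and 2048, 2110.3 and 2169.6 in OHT. No library labelled OHT reached the EtOH range of its day. The log2 fold change was -0.40 ± 0.05 (SE) at Day 2 and -0.45 ± 0.05 at Day 4 (DESeq2 adjusted p = 1.13e-14 and 1.56e-20).

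*Lss* (chr10:76531588-76557138, plus strand) encodes lanosterol synthase, which closes the sterol ring system. Normalised counts at Day 2 were 4679, 4499 and 4549 in EtOH and 3437, 3440.0 and 3613 in OHT. By Day 4 the counts were 3343, 3308 and 3402 in EtOH and 2539, 2471 and 2574 in OHT. The groups did not overlap. The log2 fold change of *Lss* was -0.39 ± 0.05 (SE) at Day 2 and -0.41 ± 0.04 at Day 4 (DESeq2 adjusted p = 4.39e-15 and 1e-19). *Lss* was the gene of the 8 whose effective length, which depends on the transcripts RSEM assigned, varied most. It ranged from 2740 to 4264 bases within Day 2 OHT, and averaged 3524 ± 215 bases in Day 4 OHT against 3013 ± 253 in Day 4 EtOH (SD, n = 3). With effective lengths as offsets, the Day 4 log2 fold change was -0.63.

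**Figure D2:**
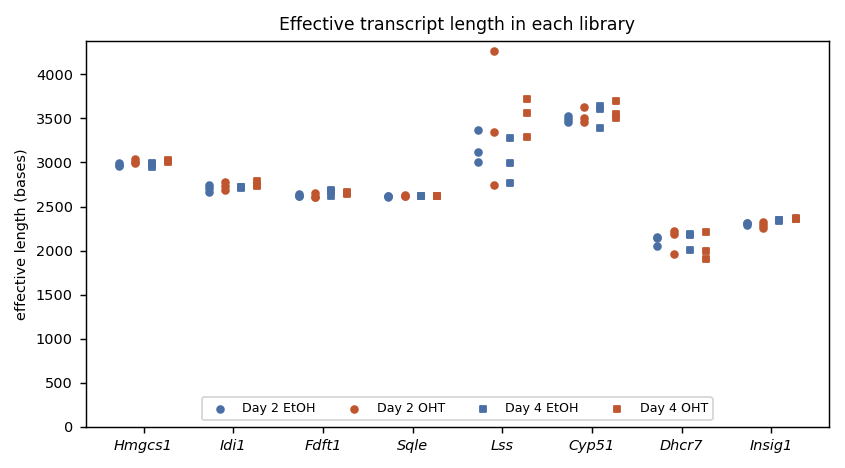
Effective length in bases (vertical axis, from 0) of the 8 genes in each library, with circles for Day 2, squares for Day 4, blue for EtOH and orange for OHT. The points of *Lss* spread from 2740 to 4264 bases, while those of *Sqle* lie close together at about the same length in all 12 libraries.

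*Cyp51* (chr5:4081145-4104746, minus strand) encodes lanosterol 14-demethylase, the cytochrome P450 step of the chain. Day 2 normalised counts were 3467, 3396 and 3494 in EtOH and 2465, 2362 and 2418 in OHT. Day 4 normalised counts were 2689.8, 2696 and 2514 in EtOH and 2046, 1994 and 1914 in OHT. It had the most negative Day 2 value of the 8, with a log2 fold change of -0.51 ± 0.05 (SE), and -0.41 ± 0.05 at Day 4 (DESeq2 adjusted p = 1.47e-23 and 1.38e-14).

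*Dhcr7* (chr7:143823145-143848410, plus strand) encodes 7-dehydrocholesterol reductase, a last step of the pathway, and had the lowest level of the 8. In the Day 2 libraries its normalised counts were 1136, 1044 and 1284 in EtOH and 945, 1018 and 1116 in OHT, so that the groups overlapped. In the Day 4 libraries they were 770.0, 751 and 753 in EtOH and 427, 478 and 494 in OHT, with a wide gap between the groups. The log2 fold change was -0.17 ± 0.09 (SE) at Day 2 and -0.70 ± 0.09 at Day 4 (DESeq2 adjusted p = 0.176 and 8.1e-15).

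*Insig1* (chr5:28071363-28078662, plus strand) encodes the membrane protein that retains the SCAP-SREBP complex and is itself an SREBP target. Normalised counts at Day 2 were 5666, 5752 and 5588 in EtOH and 4507, 4361 and 4250.1 in OHT. At Day 4 they were 3660.1, 3593 and 3502 in EtOH and 2972, 2886 and 2939.6 in OHT. OHT lay below EtOH on both days, by a log2 fold change of -0.37 ± 0.04 (SE) at Day 2 and -0.29 ± 0.04 at Day 4 (DESeq2 adjusted p = 3.32e-15 and 5.35e-11).

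Every library labelled OHT lay below every library labelled EtOH for 7 of the 8 genes at Day 2 and 8 of 8 at Day 4, where 26.9% and 29.5% of all genes tested did so. The size of the effect was then compared between the days through the treatment-by-day interaction in a fit of all 12 libraries. Only *Dhcr7* differed, with an effect at Day 4 more negative by -0.53 ± 0.12 (SE) on the log2 scale (DESeq2 adjusted p = 0.000148), and 13.6% of all genes tested were called in that direction and 18.7% in the other. For the other 7 genes the difference lay between -0.05 (*Sqle*) and 0.11 (*Cyp51*), with 95% intervals from -0.19 at the lowest (*Idi1*) to 0.23 at the highest (*Cyp51*), and no call by DESeq2 or edgeR. Those intervals are the bound on a difference that these libraries could have missed.

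The 8 genes also fell with time, within each treatment. From Day 2 to Day 4, all 8 were lower in EtOH and all 8 in OHT, where 20.5% and 23.0% of all genes tested were called lower. In EtOH the change was largest for *Insig1*, which fell by 36.9% (log2 fold change -0.66 ± 0.04, SE), and for *Dhcr7*, by 34.4% (-0.61 ± 0.08). In OHT *Dhcr7* fell by 54.4% (-1.13 ± 0.09) and *Insig1* by 32.8% (-0.57 ± 0.04). *Idi1* changed least, with -0.13 ± 0.05 in EtOH (DESeq2 adjusted p = 0.0467) and -0.15 ± 0.05 in OHT (DESeq2 adjusted p = 0.0132), and its libraries overlapped between the days in both. Its call was lost in 11 of 14 alternatives in EtOH, edgeR among them, and in 5 of 14 in OHT, each of these leaving out 1 library. The days differ in time in culture and in anything else done on that day, which cannot be told apart. The comparisons within a treatment use the same libraries as those within a day.

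**Figure D3:**
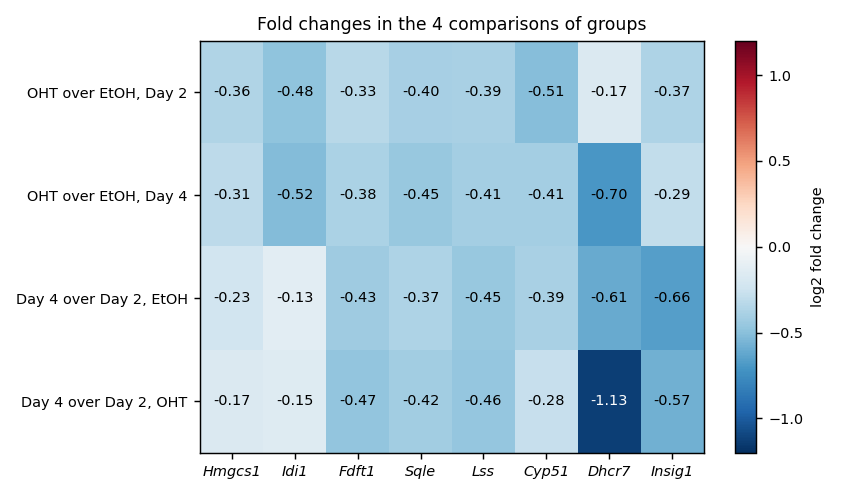
Log2 fold changes (colour and printed values) of the 8 genes (columns) in OHT over EtOH at each day and in Day 4 over Day 2 within each treatment (rows). All 32 values are below 0, from -1.13 for *Dhcr7* over time in OHT to -0.13 for *Idi1* over time in EtOH.

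Between the ends of the design, the normalised count in Day 4 OHT was 40.4% of that in Day 2 EtOH for *Dhcr7*, 51.7% for *Insig1*, 55.3% for *Lss*, 56.6% for *Sqle*, 57.2% for *Fdft1*, 57.5% for *Cyp51*, 64.1% for *Idi1* and 68.8% for *Hmgcs1*. The middle groups fell in different orders. Day 2 OHT was higher than Day 4 EtOH for *Fdft1*, *Lss*, *Dhcr7* and *Insig1*, with no overlap. Day 4 EtOH was higher for *Hmgcs1*, *Idi1* and *Cyp51*, with no overlap, and for *Sqle*, where the libraries overlapped. For *Idi1* both neighbouring pairs of the same treatment overlapped, and for *Dhcr7* the Day 2 pair.

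Per length, the summed level of the 8 genes was 311 ± 10.98 TPM in Day 2 EtOH, 250.1 ± 16.03 in Day 2 OHT, 265 ± 7.52 in Day 4 EtOH and 195 ± 3.85 in Day 4 OHT (SD, n = 3). The lowest Day 2 OHT library had 231.5 TPM and the highest 259.5 TPM, below the Day 2 EtOH minimum of 302.8. The order of levels in Day 2 EtOH ran from *Hmgcs1* through *Insig1* (51.7 ± 0.555 TPM), *Idi1* (44.9 ± 2.41), *Fdft1* (44.2 ± 0.908), *Lss* (30.5 ± 1.60), *Sqle* (29.9 ± 0.962) and *Cyp51* (20.8 ± 0.403) to *Dhcr7* (11.5 ± 1.68). *Idi1* and *Fdft1*, and likewise *Lss* and *Sqle*, differed by less than their spread. On the TPM scale *Idi1* was level between the EtOH groups, at 44.9 ± 2.41 at Day 2 and 45.0 ± 3.99 at Day 4.

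The likeness of the 8 genes across the design is described here, and they were chosen with earlier results of these data known. Over the 12 libraries the 28 pairs of genes had a Pearson r of log2 normalised counts from 0.621 to 0.99, with a median of 0.93. After the group means were removed, r ran from -0.678 to 0.537 with a median of 0.012, so that the likeness lay in the differences between the groups. *Sqle* followed the mean of the other 7 most closely (r = 0.995), and *Idi1* least (0.819). Among 11612 genes ranked by r with the mean profile of the 8, *Sqle* ranked 1, *Lss* 4, *Fdft1* 11, *Cyp51* 18 and *Hmgcs1* 37. *Insig1* ranked 89, *Dhcr7* 258 and *Idi1* 523, behind many genes outside the 8, although the profile includes them. Among 11612 genes with a mean normalised count above 100, the genes outside the lists most like the mean profile of the 8 were *Bdnf* (r = 0.9905), *Ccdc58* (0.9888), *Dppa3* (0.9875), *Asns* (0.983) and *Aktip* (0.9817), each over 12 libraries that share the 4 groups. *Bdnf* lay near that minimum, with a mean of 102 over the 12 libraries. In OHT against EtOH at Day 4 its mean was 78.6 and it was not called, and its Day 2 call was lost in 2 of 14 alternatives. *Asns*, the asparagine synthetase gene, had a log2 fold change of -0.31 ± 0.04 (SE) at Day 2 and -0.38 ± 0.03 at Day 4. *Dppa3*, a gene of naive pluripotent and germ cells, had -0.37 ± 0.06 and -0.32 ± 0.06.

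The rest of the synthesis chain was read from a list of 12 further enzymes. Of these, 8 fell and 0 rose at Day 2, and 8 fell and 1 rose at Day 4, by DESeq2. By edgeR, 9 and 10 were called lower. Among all genes tested, DESeq2 called 10.7% lower and 9.17% higher at Day 2, and 21.7% and 23.5% at Day 4. The median log2 fold changes of the 12 enzymes were -0.22 and -0.23, and those of all genes tested -0.03 and 0.0061. No enzyme of the list was called higher at Day 2 by DESeq2 or edgeR, and 0 were higher at an unadjusted p below 0.05. *Pmvk*, phosphomevalonate kinase, was the most negative of these 12 enzymes and is on the study's list of PRDM10-bound genes. At Day 2 it had normalised counts of 1507, 1467 and 1580.4 in EtOH and 739, 725 and 872 in OHT. Its log2 fold change was -0.96 ± 0.08 (SE) at Day 2 and -0.93 ± 0.06 at Day 4 (DESeq2 adjusted p = 9.1e-33 and 8.3e-45).

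*Msmo1* (-0.52 ± 0.05, then -0.48 ± 0.04), *Hsd17b7* (-0.38 ± 0.07, then -0.51 ± 0.07), *Mvd* (-0.39 ± 0.06, then -0.44 ± 0.06), *Fdps* (-0.24 ± 0.05, then -0.44 ± 0.04), *Acat2* (-0.22 ± 0.05, then -0.24 ± 0.04) and *Sc5d* (-0.22 ± 0.07, then -0.17 ± 0.07) fell on both days, where values are log2 fold changes with their SE. *Lbr*, a sterol reductase of the nuclear envelope, fell at Day 2 (-0.16 ± 0.04), and *Ebp*, a sterol isomerase, at Day 4 (-0.22 ± 0.08). *Tm7sf2*, which encodes the other sterol 14-reductase, rose at Day 4 by 0.25 ± 0.07 (DESeq2 adjusted p = 0.0024). Its reads were also shared with other loci, with a posterior SD of the count of up to 26.8 reads in Day 4 OHT. The mean normalised count of *Tm7sf2* was 818 in Day 4 EtOH and 972 in Day 4 OHT. *Mvk* and *Nsdhl* were not called by DESeq2 on either day, while edgeR called *Mvk* lower at Day 2 and *Nsdhl* lower at Day 4, with DESeq2 log2 fold changes of -0.19 ± 0.08 and 0.08 ± 0.08 for *Mvk* and -0.16 ± 0.08 and -0.19 ± 0.08 for *Nsdhl*.

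**Figure D4:**
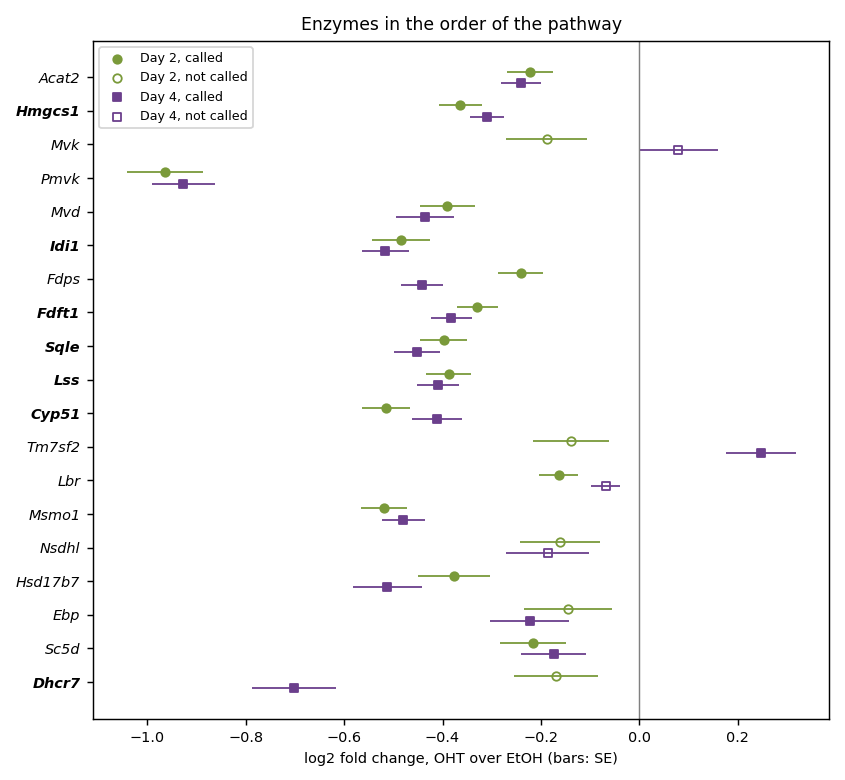
Log2 fold change, OHT over EtOH, with SE (horizontal axis) of the 7 synthesis enzymes among the 8 genes (bold) and the 12 further enzymes, from the first step at the top to the last at the bottom. Green circles are Day 2, purple squares Day 4, and filled symbols were called. *Pmvk* lies farthest to the left on both days, and *Tm7sf2* is the called value above 0.

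The genes that control SREBP gave few calls in OHT against EtOH. Of 12 genes, 0 rose and 0 fell at Day 2 by DESeq2, beside 9.17% and 10.7% of all genes tested. By edgeR also, 0 of the 12 were called in either direction. At an unadjusted p below 0.05, *Mbtps2*, the site-2 protease gene, stood alone (0.20 ± 0.08, higher). With total counts as scaling, with all 12 libraries in 1 fit, or without replicate 3 of Day 2 EtOH, 1 gene of the list was called higher. At Day 4, 1 gene fell and 1 rose, beside 21.7% and 23.5% of all genes tested, and edgeR called 2 lower, *Ube2g2* besides *Srebf2*. *Srebf2*, the SREBP gene most tied to cholesterol, had normalised counts of 3209, 3284 and 3298 in EtOH and 2683, 2658 and 2814 in OHT. Its log2 fold change was -0.27 ± 0.04 (SE) with a DESeq2 adjusted p of 1.7e-08, and -0.04 ± 0.05 at Day 2. *Erlin2*, an endoplasmic reticulum scaffold, rose by 0.13 ± 0.05, a call that was lost without replicate 2 of Day 4 EtOH or replicate 1 or 2 of Day 4 OHT, and with the replicate block. *Srebf1* (-0.08 ± 0.05, then 0.02 ± 0.05), *Scap* (0.10 ± 0.06, then -0.07 ± 0.06) and *Insig2* (-0.09 ± 0.08, then 0.06 ± 0.08) were called on neither day. From Day 2 to Day 4, 3 of the 12 rose and 3 fell in EtOH, and 4 rose and 4 fell in OHT. Of all genes tested, 2381 of 11570 rose and 20.5% fell in EtOH, and 3580 of 11633 rose and 23.0% fell in OHT. Those that fell in EtOH included *Srebf1* (-0.30 ± 0.05) and *Srebf2* (-0.19 ± 0.05).

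Uptake and transport genes gave few calls in OHT against EtOH. Of 12 genes, 1 fell and 1 rose at Day 2, where 10.7% of all genes tested were called lower and 9.17% higher. At Day 4, where 10 passed the minimum mean, 1 fell and 2 rose, beside 21.7% and 23.5% of all genes tested, and edgeR called 3 lower. From Day 2 to Day 4, 10 of 12 fell in EtOH, with a median log2 fold change of -0.38, and 5 of the 11 tested fell in OHT (9 by edgeR), with a median of -0.21, where 20.5% and 23.0% of all genes tested were called lower. *Stard4*, a sterol carrier, had a log2 fold change of -0.20 ± 0.07 (SE) at Day 2 and -0.31 ± 0.08 at Day 4, and its Day 2 call was lost in 8 of 14 alternatives. These were edgeR, TMM factors, total counts as scaling, the replicate block, and leaving out any 1 of replicates 1 and 3 of EtOH and replicates 1 and 2 of OHT. *Npc2*, which hands cholesterol out of the lysosome, rose by 0.21 ± 0.05 at Day 2 and 0.41 ± 0.04 at Day 4. *Stard3* rose at Day 4 by 0.21 ± 0.08, a call that was lost whichever of the 6 Day 4 libraries was left out, and with the replicate block. *Vldlr*, a lipoprotein receptor gene named after its values were seen, had means of 148 ± 9.85 in EtOH and 47.6 ± 9.59 in OHT (SD, n = 3) at Day 4, just under the minimum mean over the 6 libraries, with a log2 fold change of -1.64 ± 0.22.

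Among genes of cholesterol efflux and storage, *Apoe* and *Soat1* rose in OHT against EtOH on both days. Of 9, 4 passed the minimum mean at Day 2 and 5 at Day 4, where 9.17% and 23.5% of all genes tested were called higher. None fell by DESeq2, also at an unadjusted p below 0.05, while edgeR called *Abcg1* higher at Day 2 and lower at Day 4. *Abca1* was called higher at Day 4 by edgeR, with a DESeq2 log2 fold change of 0.32 ± 0.15 that was not called. *Apoe*, the apolipoprotein E gene, had normalised counts of 6212, 5956 and 6152 in EtOH and 19271, 19701 and 19088 in OHT at Day 4, a log2 fold change of 1.66 ± 0.03 (SE), after 0.53 ± 0.04 at Day 2. *Soat1*, which esterifies cholesterol for storage, rose by 0.25 ± 0.05 at Day 2, a call that was lost with effective lengths as offsets, and by 0.64 ± 0.05 at Day 4. Over time *Soat1* fell in both treatments, by a log2 fold change of -0.72 ± 0.05 in EtOH and -0.33 ± 0.04 in OHT, while *Apoe* fell in EtOH (-0.54 ± 0.04) and rose in OHT (0.60 ± 0.03). *Nr1h2*, an LXR gene, fell in EtOH (-0.18 ± 0.06) and *Abcg1* in OHT (-0.79 ± 0.13). *Abca1*, also of this list, rose over time in EtOH (0.81 ± 0.18) and in OHT.

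Of 12 genes of fatty acid synthesis, the lipid branch served by SREBP-1, 6 fell and 1 rose (*Me1*, 0.35 ± 0.08) at Day 2. On that day 10.7% of all genes tested were called lower and 9.17% higher. At Day 4, 7 of the 12 fell and 0 rose, beside 21.7% and 23.5% of all genes tested. There edgeR and an unadjusted DESeq2 p below 0.05 also gave 0 higher among the 12. The desaturase genes *Scd2* (log2 fold change -0.27 ± 0.05 at Day 2 and -0.56 ± 0.04 at Day 4) and *Scd1* (-0.26 ± 0.05 and -0.40 ± 0.05) were the most negative at Day 4. *Fasn*, fatty acid synthase, was not called, at 0.09 ± 0.04 and -0.02 ± 0.04. Of 11 genes of the isoprenoid branches that leave the pathway before squalene, 3 fell on each day by DESeq2. By edgeR, 3 were called lower at Day 2 and 5 at Day 4. On both days 0 of the 11 rose, by DESeq2, by edgeR and at an unadjusted DESeq2 p below 0.05. Beside them, DESeq2 called 10.7% of all genes tested lower at Day 2 and 21.7% at Day 4, and 9.17% and 23.5% higher. *Rabggtb*, a subunit of a prenyl transferase for Rab proteins, had -0.18 ± 0.04 and -0.20 ± 0.04, and *Fntb*, the farnesyltransferase beta subunit, had 0.13 ± 0.08 and -0.31 ± 0.08. Without replicate 1 of Day 2 EtOH, 1 gene of the branch list was called lower at Day 2.

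**Figure D5:**
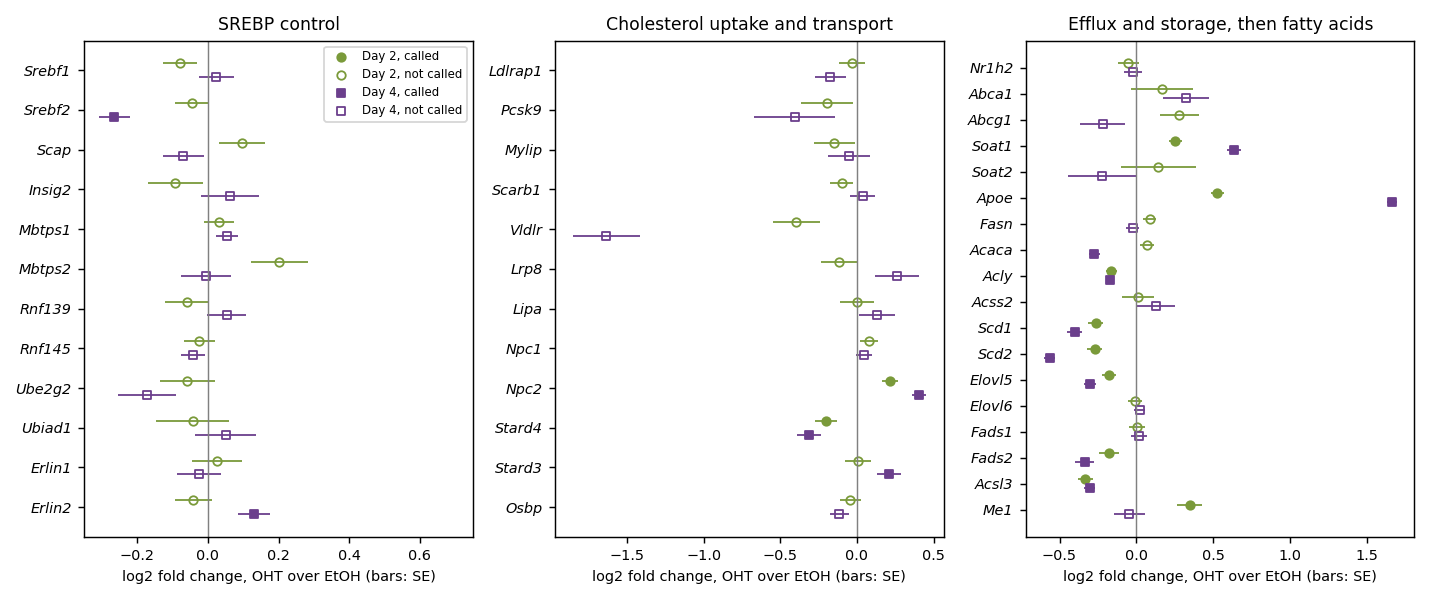
Log2 fold change, OHT over EtOH, with SE (horizontal axes, which differ in range) of genes for SREBP control, for cholesterol uptake and transport, and for efflux and storage followed by fatty acid synthesis, leaving out genes with a mean normalised count of 40 or less at Day 4. Green circles are Day 2, purple squares Day 4, and filled symbols were called. *Stard4* lies to the left of 0 and *Npc2* to the right on both days, and *Apoe* at Day 4 lies farthest to the right.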

How the data were processed

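Per the labels, the authors mapped paired reads of stranded, rRNA-depleted total RNA to GRCm38.p6 with STAR (2.6.0c) and quantified genes with RSEM, 1 library at a time. The deposited expected counts estimate the read pairs of each gene, sharing pairs that map to several genes, and the deposited TPM values scale them by effective length to a fixed total. The authors' tables of log2 fold changes, base means, p-values and adjusted p-values were used for gene symbols alone, and every per-sample column had a sample.

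Libraries were grouped by sample title. Expected counts were rounded and tested with DESeq2 (1.42.0, R 4.3.3), the study's tool: Wald test, median-of-ratios size factors, default independent filtering, 1 fit per comparison, called at an adjusted p below 0.05 and a mean above 100. Printed normalised counts use size factors over all 12 libraries. Alternatives were edgeR (4.0.16), TMM factors, total counts, effective lengths as offsets, a loess length trend removed (span 0.3), no minimum mean, all 12 libraries in 1 fit, a replicate block, and each library left out. The fits were tested on simulated counts. SEs are those of the DESeq2 fit and hold counting error as well as the spread between these libraries. At Day 4 the SE was 0.03 for *Hmgcs1*, with a mean of 8493, and 0.22 for *Bdnf*, with a mean of 78.6. Reads without molecular identifiers are not independent molecules.

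The 8 genes and all lists were chosen with earlier results of these data known. Named beside them by rule were *Prdm10*, *Srebf1*, *Srebf2*, *Scap*, *Insig2*, *Pmvk* (on the study's list of bound genes), the 2 most positive and 2 most negative called Day 4 values of each list, and the 5 most similar genes. All others were named after their values were seen. Some genes of these lists are not reported here. Coordinates are GENCODE vM21 and promoters RefSeq.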

Additional observations from a re-analysis of the deposited data

Results flagged for a closer look

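The effect of 4-OHT differed between Day 2 and Day 4 by the interaction test (DESeq2, adjusted over all genes tested, of which 32.3% were called) for 10 of the 31 named genes, also 32.3%, so that the count was no higher than the share of all genes. Among the 8 cholesterol genes this was *Dhcr7*, at -0.53 on the log2 scale (Day 4 effect minus Day 2 effect), called in every alternative and from -0.61 to -0.46 across them. The effect at Day 4 was more negative by -0.22 for *Srebf2*, -0.29 for *Scd2*, -0.44 for *Fntb* and -0.23 for *Prdm10*, the last a call that was lost in 8 of 19 alternatives. It was more positive by 1.14 for *Apoe*, 0.39 for *Soat1*, 0.39 for *Tm7sf2*, 0.20 for *Npc2* and 0.18 for *Erlin2*. These genes, *Scd2* and *Fntb* were named for extreme called values at Day 4. That choice favours a difference in the direction of the Day 4 value, so their directions are a description only. The calls of *Erlin2* and *Npc2* were lost in 3 and 1 of 19 alternatives. *Vldlr*, outside the naming rule, had an interaction of -1.24 ± 0.24 (SE).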

How the results depend on the processing

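The numbers of the 8 genes called in each direction stayed within 1.5 times in every alternative of all 5 comparisons, and all 224 single values of the 8 genes within Day 2 and Day 4 kept their direction and their side of the threshold. Sign changes arose in values near 0 that were not called. With 1 library left out, log2 values ran from -0.055 to 0.043 for *Stard3* at Day 2 and from -0.0029 to 0.069 for *Srebf1* at Day 4, which was -0.056 with effective lengths as offsets. The difference between the days ran from -0.092 to 0.034 for *Idi1* and from -0.034 to 0.0060 for *Lss*, which was -0.15 with effective lengths as offsets. The cause was not tested. Same-numbered libraries did not all deviate together (r of deviations from the group mean, over 11616 genes, from -0.034 to 0.106 at Day 2, from -0.245 to 0.158 at Day 4, from -0.03 to 0.291 between the days in EtOH and from -0.43 to 0.013 in OHT), so the numbers were not taken as pairs. With the replicate block, 7 genes were called lower at Day 2 and 8 at Day 4, as without it. Depth limits the genes near the minimum mean, such as *Vldlr*, more than the 8.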
